A study of Mus musculus with 24 samples.

Results

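Cybrd1, Slc11a2, Slc40a1 and Heph encode the proteins by which a duodenal enterocyte takes up dietary iron and passes it to the blood. They were followed here in liver and duodenum of mice lacking Hfe, the gene mutated in the common form of hereditary hemochromatosis. The members were every probe set (a group of short array probes read as one signal) that the annotation of the array pairs with 1 of these 4 gene symbols, of 13006 genes with a usable probe set. Cybrd1 has 2 probe sets, Slc11a2 has 4, Slc40a1 has 2 and Heph has 1, and all 9 passed the filter on low signal. The 24 Affymetrix arrays fall into 8 groups of 3, from male mice aged 7 weeks. By the study's methods 3 mice of each strain and genotype were profiled, so that the 12 liver and 12 duodenum arrays share animals, but the labels do not say which arrays are of 1 mouse. Each of liver and duodenum was taken from wild-type and Hfe-/- mice of the C57BL/6 (B6) strain and of the DBA/2 (D2) strain. D2 is the strain known to load more iron when Hfe is lost. The Hfe-/- mice were bred by the laboratory and the wild-type mice were bought, so that origin and genotype cannot be told apart.

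Dietary iron is mostly ferric and has to be reduced before it can be carried into the enterocyte. Cybrd1 (Dcytb) is a reductase of the brush border, and Slc11a2 (DMT1) is the transporter that brings ferrous iron through the apical membrane. Slc40a1 (ferroportin), the only known exporter of iron from mammalian cells, releases it at the basolateral side, where the ferroxidase Heph (hephaestin) oxidizes it for binding to transferrin. Ferroportin also lets macrophages and hepatocytes release iron, and hepcidin, a liver hormone whose control involves Hfe, removes ferroportin protein from the membrane. In the intestine, Cybrd1 and Slc11a2 are known targets of hypoxia-inducible factor 2.

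The genes lie on different chromosomes of the mouse assembly GRCm38.p6. Cybrd1 is on chromosome 2 at 71118054 to 71142926, Slc11a2 on chromosome 15 at 100387898 to 100424209, Slc40a1 on chromosome 1 at 45908070 to 45926532 and Heph on chromosome X at 96455436 to 96574485. The sequence table at hand held a promoter for 1 of the 4 members, Cybrd1, which is also the member with the largest rise in duodenum reported below. The 250 bases before its start (RefSeq, GRCm38.p6, chr2:71117804-71118053, plus strand) are shown 5′ to 3′, with capitals marking the single GCGTG, one of the forms of the core that hypoxia-inducible factors bind.
Cybrd1 promoter: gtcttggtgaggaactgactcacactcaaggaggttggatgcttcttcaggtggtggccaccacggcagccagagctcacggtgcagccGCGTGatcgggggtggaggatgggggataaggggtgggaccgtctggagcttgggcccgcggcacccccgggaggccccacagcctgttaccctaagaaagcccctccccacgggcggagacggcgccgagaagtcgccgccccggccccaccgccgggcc
Both strands were searched. GCGTG begins 161 bases before the start on the plus strand and occurs in 28.2% of 32851 mouse promoter windows of the same length. ACGTG, found in 16.6% of the windows, and TATAAA, found in 12.4%, are not among the letters of this one.

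Hfe itself separated the genotypes on every array of both tissues. In liver its signal was 674 to 691 in wild-type B6 mice against 86.2 to 98.8 in Hfe-/- B6 mice, and 434 to 515 against 70.4 to 82.9 in D2 mice. In duodenum it was 76.6 to 98.7 against 15.7 to 25.7 in B6 and 95.3 to 105 against 29 to 45.1 in D2. Signals are in the arbitrary units of the MAS5 method after scaling, and the median over all probe sets of an array was 15.7 to 20.9 in liver and 20 to 23.4 in duodenum. The enterocyte marker Vil1 (villin) was at 2717 to 3792 in duodenum and at 0.96 to 13.7 in liver, and the hepatocyte marker Alb (albumin) was at 9624 to 17062 in liver and at 1.53 to 21.3 in duodenum. The duodenal samples also held transcripts of pancreatic acinar cells: the summed signal of 8 markers was 9976 to 73422 on 10 of the 12 arrays, and 1662 and 2002 on Hfe-/- D2 arrays 2 and 3.

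All 9 probe sets were lower in liver than in duodenum of wild-type mice, without overlap, in both strains, as were 38.4% (B6) and 37% (D2) of all probe sets. The fit took the arrays as independent, although the tissues share mice. A probe set was called between tissues or strains at an adjusted p (limma, Benjamini-Hochberg over 28061 probe sets) of at most 0.01. In B6 mice 8 of the 9 were called lower in liver, where 44.7% of all probe sets were called in either direction, and in D2 mice 8 of 9, against 44.4%. The median log2 difference of the members was -2.01 in B6 and -2.22 in D2, against -0.21 and -0.20 over all probe sets. The exceptions were Slc11a2 1441709_at in B6 (log2 -1.08, adjusted p = 0.115) and 1417584_at in D2 (log2 -1.44, adjusted p = 0.0142). Tissue and hybridization run were largely confounded: with the run as a block, 5 and 4 of the 9 were called. With fluidics station added to the block, 3 and 1 were called and 3 Slc11a2 differences changed sign.

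Heph and Cybrd1 showed the largest separation of the tissues. Heph had signals of 1424 to 2379 in duodenum and 2.6 to 22.7 in liver, where 9 of 12 arrays were below their own array's median. Cybrd1 was at 105 to 1342 (1425040_at) and 216 to 3022 (1460604_at) in duodenum. In liver it was at 1.96 to 26.5 and 0.365 to 30.9, below the median of the array on 11 and 10 of 12 arrays. Slc40a1 was far above the median in both tissues, and its signal was 4.02-fold (1417061_at) and 3.47-fold (1448566_at) lower in liver than in duodenum in wild-type B6 mice, but 1.73-fold and 2.15-fold lower in wild-type D2 mice. In bulk tissue, fewer cells of a type and less RNA per cell cannot be told apart.

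In duodenum, Hfe loss in D2 mice went with a rise of Cybrd1, 5.32-fold for 1425040_at and 8.73-fold for 1460604_at. For 1425040_at the signals of wild-type D2 mice were 149.8, 205 and 213 and those of Hfe-/- D2 mice 829.6, 885 and 1342. For 1460604_at they were 221, 326 and 253 against 1810.3, 2227 and 3022. Every Hfe-/- D2 array was above every wild-type array of both strains. Of all probe sets, 9.74% had every Hfe-/- D2 array above every wild-type D2 array. The log2 fold change was 2.41 (standard error 0.41, 95% interval 1.52 to 3.30, adjusted p = 0.0518) for 1425040_at. It was 3.13 (standard error 0.50, 95% interval 2.05 to 4.21, adjusted p = 0.0386) for 1460604_at. Both were called at the threshold used for the knockout, an adjusted p of at most 0.1, and they were the 2 of 9 member probe sets called in this comparison, where 0.378% of all probe sets were called.

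**Figure D1:**
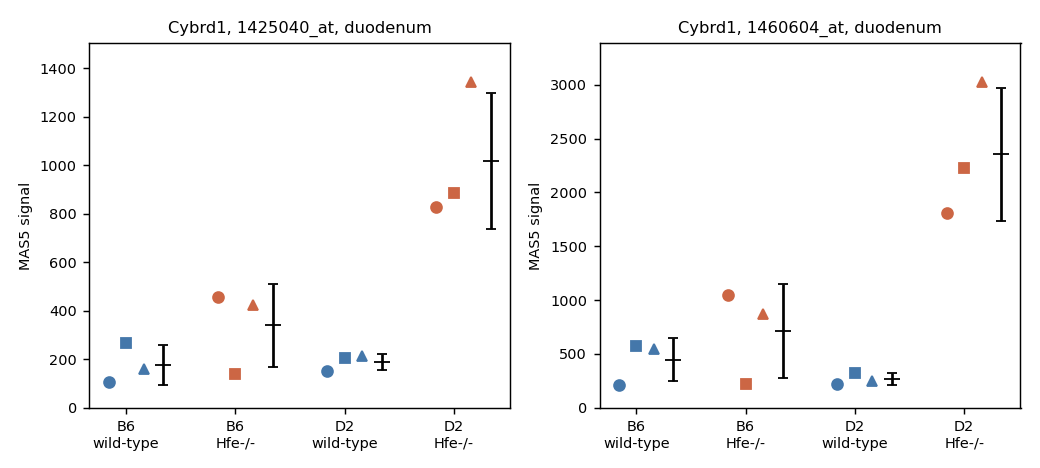
Cybrd1 in duodenum. The y axis is the MAS5 signal (arbitrary units) of each of the 2 probe sets, the x axis the 4 groups; circles, squares and triangles are mice 1, 2 and 3, blue wild-type and orange Hfe-/-, and the black bar is the mean with its SD (n = 3). The D2 Hfe-/- mice lie at 829.6 to 1342 and at 1810.3 to 3022, above all other arrays of the panel, while 1 B6 Hfe-/- mouse, number 2, lies among the wild-type mice.

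In B6 duodenum the knockout arrays did not form 1 group. For 1460604_at the wild-type signals were 216, 571 and 549 and the Hfe-/- signals 1052, 222 and 874. Mice 1 and 3 were above all wild-type mice and mouse 2 was near the lowest. For 1425040_at the values were 105, 266 and 161 against 455, 140.5 and 423, with mouse 2 again apart. The log2 fold changes were 0.53 (95% interval -0.55 to 1.61, adjusted p = 0.921) and 0.86 (95% interval -0.03 to 1.75, adjusted p = 0.874). None of the 9 member probe sets was called in B6 duodenum, where 0.0107% of all probe sets were; 1 of the 9 had an unadjusted p under 0.05, against 5.66% of all. Hfe-/- B6 array 2 was the lowest of its group in 7 of 9 member probe sets. All 3 Hfe-/- B6 arrays had Hfe signals below every wild-type array, as given above. Only mouse 1 shared a hybridization run with the wild-type B6 mice, and against them it differed by 1.46 and 1.37 on the log2 scale for Cybrd1.

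The difference between the strains in the knockout effect was itself tested. It was 1.55 on the log2 scale for 1425040_at (95% interval 0.30 to 2.81, adjusted p = 0.402) and 2.60 for 1460604_at (95% interval 1.07 to 4.12, adjusted p = 0.306), larger in D2 for both. Neither was called, nor was any of the 9 in duodenum, where 0.0143% of all probe sets were called for this difference; 3 of the 9 had an unadjusted p under 0.05, against 10.4% of all. Among Hfe-/- mice, D2 was above B6 on every array, as in 15.1% of all probe sets. The difference was 3.32-fold for 1425040_at and 3.91-fold for 1460604_at (adjusted p = 0.0206 and 0.0295), which did not pass the strain threshold of 0.01. Among wild-type mice the strains overlapped, with log2 differences of 0.18 and -0.63 (adjusted p = 0.876 and 0.575).

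The Cybrd1 calls in D2 duodenum depended on single arrays and on the variance model. They were lost without wild-type array 1, Hfe-/- array 2 or Hfe-/- array 3 (adjusted p = 0.133 to 0.282, log2 2.20 to 3.15) and without a mean-variance trend (adjusted p = 0.178 and 0.163). All 6 D2 arrays were hybridized in 1 run. With run and fluidics station as a block, an alternative added after the values were seen, log2 was 2.22 and 3.18 and the calls were lost (adjusted p = 0.283 and 0.152). Hfe-/- array 1, with a summed acinar signal of 72403 in place of 1662 and 2002, was the lowest of its group in 8 of 9 member probe sets, and still had Cybrd1 signals of 829.6 and 1810.3. With it as the only D2 knockout array, log2 was 2.15 and 2.78 (adjusted p = 0.57 and 0.528). The part of acinar transcripts in the Cybrd1 difference was not tested. An exact two-sided permutation of the genotypes within strains, added after the values were seen, gave p = 0.015 and 0.025 for the mean rise over both strains, with 0.005 the smallest p that its 400 relabellings allow. It was run for the 9 probe sets in both tissues, 18 tests, and these p-values are not adjusted. Within 1 strain, 3 mice against 3 cannot go below 0.1.

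**Figure D2:**
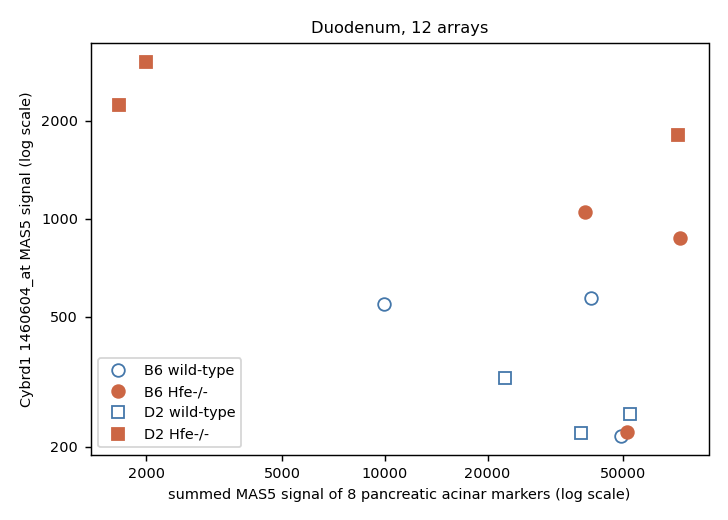
Cybrd1 beside pancreatic acinar transcripts in duodenum. Each point is 1 of 12 arrays; the x axis is the summed MAS5 signal of 8 acinar markers and the y axis the signal of Cybrd1 1460604_at, both on log scales. Circles are B6 and squares D2, filled for Hfe-/- and open for wild-type. D2 Hfe-/- arrays 2 and 3 lie at 1662 and 2002 on the x axis, and array 1, at 72403, has a Cybrd1 signal of 1810.3.

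Slc11a2 is read by 4 probe sets, whose values in duodenum are given one by one. The sources used here do not say which transcript forms each one measures. For 1441709_at the signals of wild-type D2 mice were 161, 168 and 63.6 and those of Hfe-/- D2 mice 239.8, 468 and 531. Every knockout array was above every wild-type array, as in 9.74% of all probe sets. The difference was 3.26-fold (log2 1.70, standard error 0.46, adjusted p = 0.187) and was not called. It was called without Hfe-/- D2 array 1 or Hfe-/- B6 array 2 (adjusted p = 0.0629 and 0.0811). Without array 1, Hfe-/- D2 arrays 2 and 3 remain, which had the lowest summed acinar signals (1662 and 2002). With array 1 as the only D2 knockout array, the log2 difference of 1441709_at was 1.001. For 1426441_at the wild-type and Hfe-/- D2 signals were 584, 661 and 255 against 602, 1246 and 1404 (log2 1.14, adjusted p = 0.337). For 1452078_a_at they were 215, 203 and 116 against 212, 359 and 401 (log2 0.86, adjusted p = 0.248). In both of these, knockout array 1 lay among the wild-type arrays and wild-type array 3 was the lowest of the 6. Without knockout array 1, 1452078_a_at was called (log2 1.144, adjusted p = 0.0521). With that array as the only D2 knockout array, its log2 difference was 0.303. The part of acinar transcripts in the Slc11a2 differences was not tested. The last probe set, 1417584_at, had 64, 65 and 67.9 in wild-type and 60.5, 71.1 and 63.9 in Hfe-/- D2 mice, a log2 difference of -0.01 (95% interval -0.34 to 0.31).

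**Figure D3:**
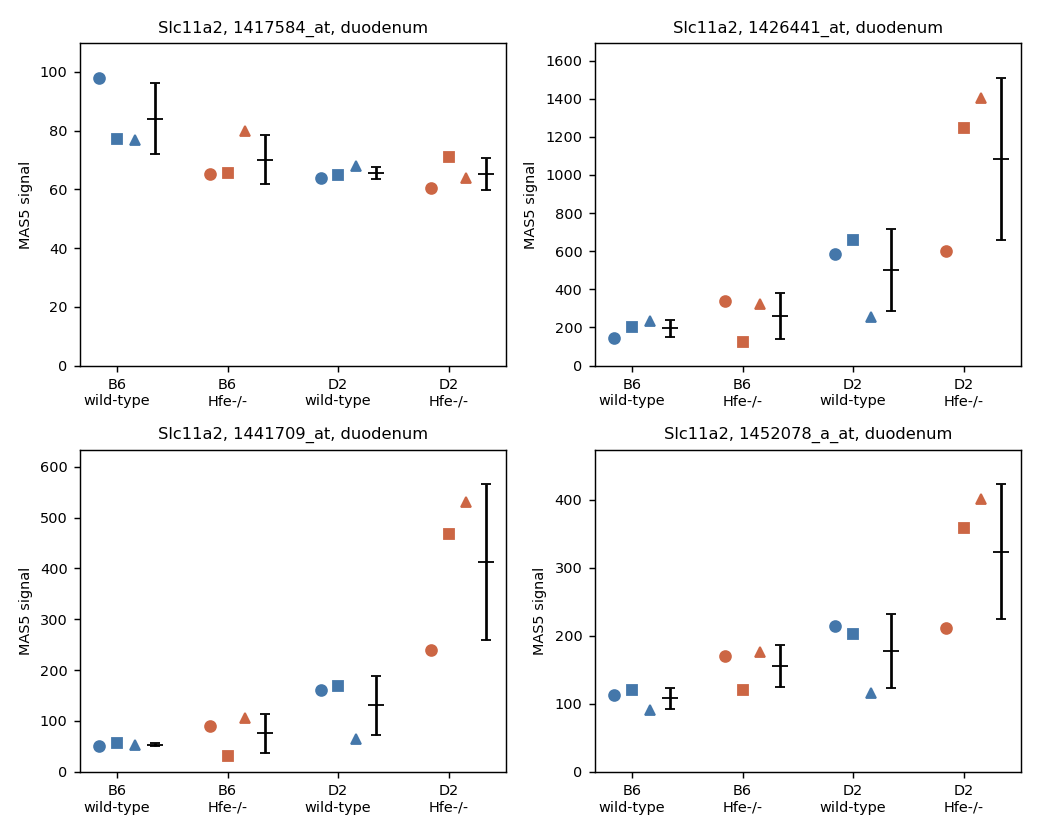
Slc11a2 in duodenum, 1 panel for each of its 4 probe sets. The y axis is the MAS5 signal (arbitrary units), the x axis the 4 groups; circles, squares and triangles are mice 1, 2 and 3, blue wild-type and orange Hfe-/-, and the black bar is the mean with its SD (n = 3). In 3 panels D2 Hfe-/- mice 2 and 3 are the highest of all 12 arrays, while 1417584_at stays between 60.5 and 98.

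In B6 duodenum none of the 4 was called. For 1441709_at the wild-type signals were 49.8, 56.2 and 53.4 and the Hfe-/- signals 90.1, 31.2 and 105, so that mice 1 and 3 were above all wild-type mice and mouse 2 below them. For 1426441_at they were 147, 203 and 235 against 341, 121 and 321, the same order. The log2 fold changes of the 4 were 0.33, 0.30, 0.52 (1452078_a_at) and -0.26 (1417584_at). For 1452078_a_at the mean knockout difference over both strains, 0.69 on the log2 scale, had an exact permutation p of 0.02, for 1441709_at 0.055 and for 1426441_at 0.095.

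Between strains, 1 Slc11a2 probe set was called in duodenum. In Hfe-/- mice, 1441709_at was 5.87-fold higher in D2 (log2 2.55, standard error 0.46, adjusted p = 0.0036) and was called. It was 1 of 9 member probe sets called, where 3.65% of all probe sets were. For 1426441_at the difference was 4.31-fold (log2 2.11, adjusted p = 0.0102, just above the threshold of 0.01) and for 1452078_a_at 2.04-fold (adjusted p = 0.0347). In all 3 every D2 array was above every B6 array, as in 15.1% of all probe sets. In wild-type mice, 1426441_at (2.41-fold) and 1441709_at (2.26-fold) were higher in every D2 mouse than in every B6 mouse, as were 11.2% of all probe sets. Neither was called (adjusted p = 0.129 and 0.182). None of the 9 was called between the wild-type strains in duodenum, where 3.37% were. An unadjusted p under 0.05 was found for 6 of the 9, of which 4 are Slc11a2, against 18.1% of all probe sets. They did not share 1 direction. Slc11a2 1417584_at (log2 -0.35), Slc40a1 1417061_at (-0.36) and Heph (-0.42) were lower in D2, and the other Slc11a2 probe sets were higher. The call for 1441709_at was lost without Hfe-/- D2 array 2 or array 3 (adjusted p = 0.0213 and 0.0226), and also without a mean-variance trend, with only the arrays compared, and with the replicate number or run and station as a block (adjusted p = 0.0115 to 0.0231). With array 1 as the only D2 knockout array log2 was 1.85 (adjusted p = 0.234).

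In liver, the 4 probe sets had signals between 3.3 and 149.9. The brightest values belonged to 1426441_at, at 81.2, 72.3 and 59.8 in wild-type B6, 74.3, 62.5 and 73.5 in Hfe-/- B6, 84.6, 115 and 98.3 in wild-type D2 and 78.6, 149.9 and 120.2 in Hfe-/- D2 mice. Genotypes overlapped in both strains and log2 fold changes were -0.01 and 0.19. D2 was above B6 without overlap in both genotypes (log2 0.48 and 0.68, adjusted p = 0.226 and 0.0669), and neither was called. Of all probe sets, 13.8% in wild-type and 12.8% in Hfe-/- liver were higher in D2 without overlap. For 1452078_a_at every Hfe-/- D2 liver, at 58.8 to 65.5, was above every wild-type D2 liver, at 40.2 to 50.8 (log2 0.46, adjusted p = 0.517), again not called. The same held for 9.61% of all probe sets.

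Slc40a1 was higher in Hfe-/- than in wild-type liver in both probe sets and both strains. The rise was called for both probe sets in B6 and for 1 of them in D2. For 1417061_at the wild-type B6 signals were 1199, 1238 and 959 and the Hfe-/- B6 signals 2289, 2136 and 1719.5. For 1448566_at they were 768, 719 and 662 against 1387, 1168 and 1201. In both, every knockout array was above every wild-type array, as in 8.34% of all probe sets. The folds were 1.81 (log2 0.85, standard error 0.12, adjusted p = 0.00605) and 1.75 (log2 0.80, standard error 0.09, adjusted p = 0.000949). They were the 2 of 9 member probe sets called in B6 liver, where 1.02% of all probe sets were called. Without a mean-variance trend 1417061_at was not called (adjusted p = 0.148). The 1 Hfe-/- B6 array hybridized in the run of the 3 wild-type arrays differed from them by 1.02 (1417061_at) and 0.96 (1448566_at) on the log2 scale.

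In D2 liver, for 1448566_at the signals were 1220, 1324 and 1122 in wild-type and 1748, 1866 and 1748 in Hfe-/- mice, a 1.47-fold difference (log2 0.55, standard error 0.09, adjusted p = 0.00983) and the single member called, where 2.75% of all probe sets were. For 1417061_at they were 2065, 2297 and 1796 against 2638, 2688 and 2607, also without overlap, a 1.29-fold difference that was not called (log2 0.37, adjusted p = 0.174). Every Hfe-/- D2 liver was above every wild-type D2 liver in 9.61% of all probe sets. Without a mean-variance trend, or with hybridization run and fluidics station as a block, 1448566_at was not called either (adjusted p = 0.132 and 0.105). For the mean rise over both strains in liver, the exact permutation gave p = 0.005, the smallest it can give, for both probe sets. It does not test D2 alone.

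Wild-type D2 livers had more Slc40a1 signal than wild-type B6 livers. The difference was 1.82-fold for 1417061_at (log2 0.86, adjusted p = 0.000345) and 1.71-fold for 1448566_at (log2 0.77, adjusted p = 6.87e-05), without overlap, and these were the 2 of 9 members called, where 4.35% of all probe sets were. Wild-type D2 was above wild-type B6 without overlap in 13.8% of all probe sets. With run and station as a block both calls were lost (log2 1.44 and 1.10, adjusted p = 0.0278 and 0.041). The level of Hfe-/- B6 livers, with means of 2048 ± 295 (SD, n = 3) and 1252 ± 118, overlapped that of wild-type D2 livers, at 2053 ± 251 and 1222 ± 101. Among Hfe-/- livers D2 remained above B6 on every array, as in 12.8% of all probe sets. The difference was 1.30-fold for 1417061_at (adjusted p = 0.0726). It was 1.43-fold for 1448566_at (adjusted p = 0.00217), the 1 of 9 called where 4.73% of all probe sets were. That call was lost without Hfe-/- B6 array 2 or 3 or Hfe-/- D2 array 2 (adjusted p = 0.0105 to 0.0134) and with the run as a block (adjusted p = 0.123).

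The knockout effect on Slc40a1 differed between strains by -0.48 on the log2 scale for 1417061_at (95% interval -0.86 to -0.11, adjusted p = 0.366) and -0.25 for 1448566_at (95% interval -0.53 to 0.03, adjusted p = 0.566), smaller in D2. Neither was called, nor was any of the 9 in liver, where 0.214% of all probe sets were called for this difference; 3 of the 9 had an unadjusted p under 0.05, against 9.74% of all. Ferroportin is abundant in Kupffer cells, the macrophages of the liver. The summed signal of 9 macrophage markers was 3469 to 4615 in wild-type and 2306 to 3807 in Hfe-/- B6 livers, and 2374 to 3422 against 2575 to 3216 in D2. None of the 9 was called with the knockout in either strain, where 1.02% (B6) and 2.75% (D2) of all probe sets were. The median log2 change of the 9 markers was -0.45 in B6 and -0.15 in D2. Their part in the Slc40a1 difference was not tested.

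**Figure D4:**
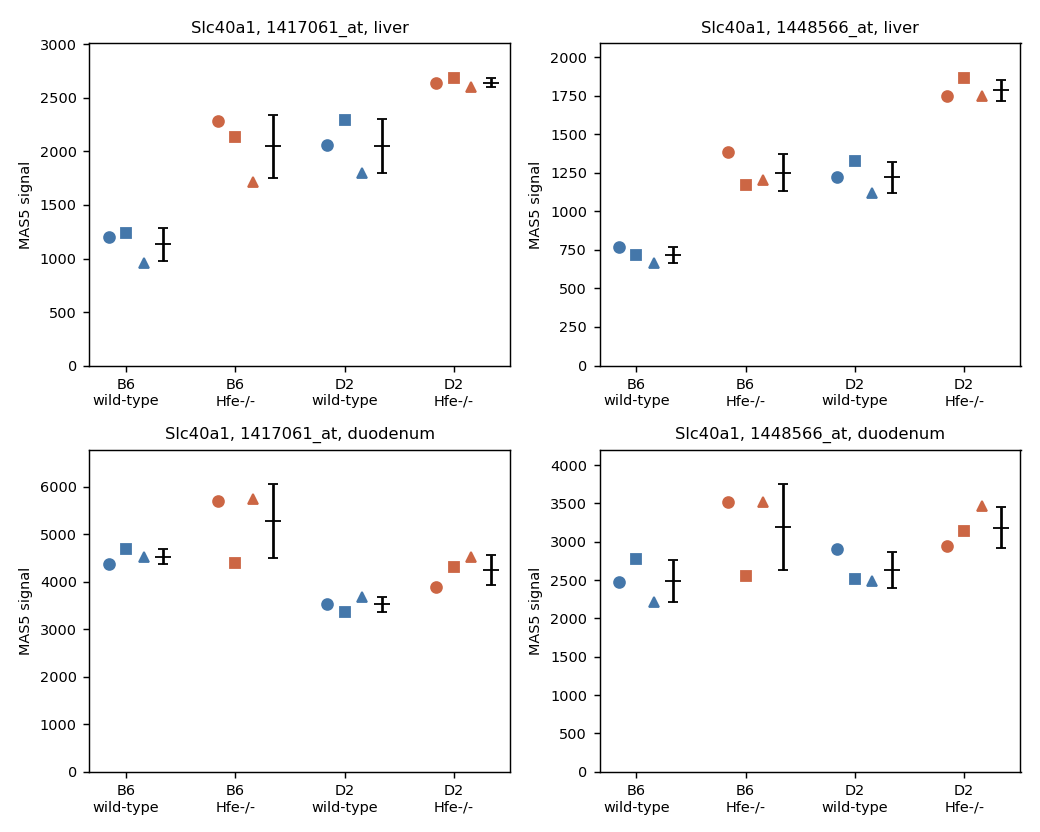
Slc40a1 in liver (upper panels) and duodenum (lower panels), for its 2 probe sets. The y axis is the MAS5 signal (arbitrary units, from 0), and the x axis the 4 groups. Circles, squares and triangles are replicates 1, 2 and 3 of each tissue, which the labels do not match between tissues. Blue is wild-type and orange Hfe-/-, and the black bar is the mean with its SD (n = 3). In liver the Hfe-/- mice lie above the wild-type mice of their strain in every panel, while in B6 duodenum replicate 2 does not.

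In duodenum Slc40a1 was brighter than in liver, and none of its knockout differences was called. For 1417061_at the signals were 4369, 4681 and 4518 in wild-type and 5708, 4387 and 5745 in Hfe-/- B6 mice, with mouse 2 among the wild-type mice. In D2 they were 3527, 3371 and 3679 against 3895, 4299.5 and 4518, higher without overlap, as were 9.74% of all probe sets. The folds were 1.16 and 1.20 and neither was called (adjusted p = 0.874 and 0.355). For 1448566_at the values were 2482, 2772 and 2216 against 3514, 2549 and 3520.2 in B6 and 2903, 2511 and 2487 against 2939, 3136 and 3467 in D2, folds of 1.27 and 1.21 (adjusted p = 0.873 and 0.443). Over both strains the mean log2 rise was 0.24 and 0.31, each with an exact permutation p of 0.02. Among wild-type mice 1417061_at was lower in D2 than in B6 without overlap (log2 -0.36, adjusted p = 0.0665), as were 11.3% of all probe sets. For 1448566_at the strains overlapped (log2 0.08).

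Heph was far above the array median in duodenum, and its knockout difference was called in neither strain. The signals were 2379, 1999 and 2003 in wild-type and 1909, 2066 and 2006 in Hfe-/- B6 mice, which overlapped (log2 -0.09, 95% interval -0.34 to 0.16). In D2 mice they were 1424, 1465 and 1902 against 1953, 1851 and 2104, with wild-type array 3 within the knockout range (log2 0.31, 95% interval 0.07 to 0.56, adjusted p = 0.306). Wild-type D2 mice were below wild-type B6 mice on every array, as in 11.3% of all probe sets. The difference was 1.34-fold (log2 -0.42, adjusted p = 0.0448, not past 0.01), while Hfe-/- mice of the strains overlapped. Leaving out wild-type D2 array 3 brought both the D2 knockout effect (log2 0.45, adjusted p = 0.0935) and the wild-type strain difference (log2 -0.55, adjusted p = 0.00556) past their thresholds. That array was the only wild-type D2 array on the fluidics station of the Hfe-/- D2 arrays. With run and station as a block, the D2 knockout effect was log2 0.05 (adjusted p = 0.971). The wild-type strain difference was then log2 -0.65 (adjusted p = 0.138), and neither was called.

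**Figure D5:**
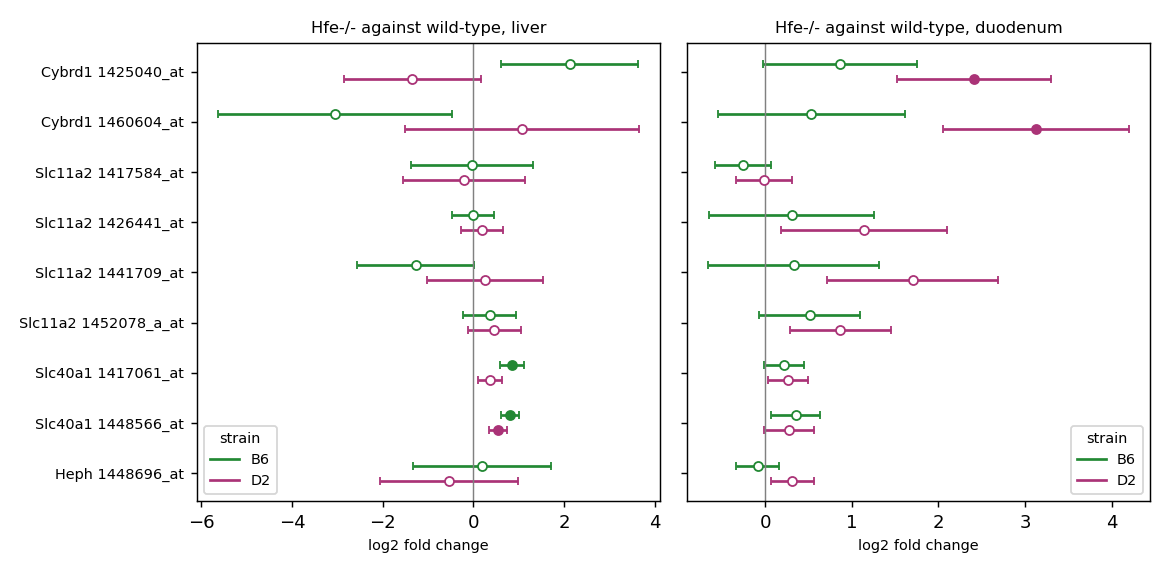
Knockout effect on the 9 member probe sets, liver on the left and duodenum on the right. The x axis is the log2 fold change of Hfe-/- against wild-type mice (the scales of the panels differ), with its 95% interval from the moderated fit (3 mice against 3); green is B6 and purple D2, and filled points are the called ones (adjusted p no higher than 0.1). Filled points are Slc40a1 in liver, at 0.55 to 0.85, and Cybrd1 in D2 duodenum, at 2.41 and 3.13; the wide liver intervals belong to Cybrd1, Heph and 2 dim Slc11a2 probe sets.

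Across the 9 probe sets in D2 duodenum the median knockout effect was 0.86 on the log2 scale, against 0.03 over all probe sets, and 7 had an unadjusted p under 0.05, against 11.8% of all. In B6 duodenum the median was 0.33 against -0.01. Probe sets of a gene are not independent of each other. After the group means were removed, Cybrd1 1425040_at and 1460604_at correlated over the 12 duodenal arrays with Slc40a1 1417061_at at r = 0.86 and 0.83 and with 1448566_at at 0.72 and 0.64. With Slc11a2 they correlated at 0.60 and 0.76 (1426441_at), 0.57 and 0.68 (1441709_at), 0.38 and 0.41 (1452078_a_at) and -0.10 and -0.15 (1417584_at), and with Heph at -0.15 and -0.35. These are descriptions over arrays that share their scaling and, in part, hybridization run.

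The genes nearest in pattern were sought among 13005 others by Pearson r of log2 signal over the 12 duodenal arrays, as a description. For Cybrd1 1460604_at they were Slc6a12 (0.96), Acsl3 (0.95) and Nabp1 (0.93), and for Slc11a2 1426441_at Aldoa (0.97), 6330403K07Rik (0.96) and St3gal6 (0.96). For Slc40a1 1417061_at they were Tnni1 (0.93), Pdlim1 (0.91) and Bmp8a (0.89), and for Heph Rnf185 (0.95), Krt5 (0.93) and Zfyve28 (0.92).

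Of 44 other genes of iron transport and its control with a usable probe set, 1 was called in D2 duodenum, against 0.378% of all probe sets. None was called in B6 duodenum, against 0.0107%. The 1 called in D2 was Slc39a4, an intestinal zinc importer, at 581 to 641 in wild-type and 1031 to 1292 in Hfe-/- D2 mice (log2 0.90, standard error 0.12, adjusted p = 0.0144). None of 8 hypoxia-inducible factors and partners, 3 storage and iron regulatory genes or 7 other reductases and ferroxidases was called with the knockout in either duodenum. The median log2 change of the 44 was 0.06 in D2 and -0.02 in B6 duodenum.

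In liver 1 of the 44 was called in B6 and 5 in D2, against 1.02% and 2.75% of all probe sets. In B6 it was Slc25a37 (mitoferrin 1, an importer of iron into mitochondria), at 96.3 to 119 in wild-type and 176 to 195 in Hfe-/- mice (log2 0.77, adjusted p = 0.037). In D2 the genes with the smallest adjusted p were Hamp, which encodes hepcidin, its paralog Hamp2, the exporter Abcg2 and the transferrin receptor Tfrc. Hamp fell from 4591 to 5672 in wild-type to 1101 to 2377 in Hfe-/- D2 mice (log2 -1.64, adjusted p = 0.00124), and in B6 it was 7825 to 9026 against 7130.1 to 9628. Hamp2 fell by 1.43 on the log2 scale (adjusted p = 0.00181); the probe sets of these near-identical genes may share signal. Abcg2 rose by 1.02 (adjusted p = 0.00983) and Tfrc fell by 1.25 (adjusted p = 0.0243). The knockout effect on Hamp and Hamp2 differed between strains (log2 -1.67 and -1.92, adjusted p = 0.0401 and 0.00933). These were the 2 of the 44 called for that difference in liver, against 0.214% of all probe sets. None was called for it in duodenum, against 0.0143%.

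Between strains, 3 of the 44 were called higher in D2 in wild-type liver: Hamp2 (log2 2.37), Slc39a14, an importer of iron and zinc (0.67), and the metalloreductase Steap4 (0.76). Of all probe sets, 4.35% were called between strains in wild-type and 4.73% in Hfe-/- liver. In duodenum the shares were 3.37% and 3.65%. In Hfe-/- liver Steap4 was higher (1.17) and Hamp (-2.35) and Cyb561 were lower, the latter at 29.2 to 30.2 in B6 and, below the array medians, at 2.02 to 4.32 in D2. In duodenum Nfe2l2, which encodes NRF2, was higher in D2 in wild-type (log2 0.72, adjusted p = 0.000813) and Hfe-/- mice (0.81, adjusted p = 0.000352), and Cyb561, a transmembrane reductase, was lower (-0.68 and -0.60). Slc39a4 was also higher in Hfe-/- D2 duodenum (0.74). Between tissues 13 of the 44 were called higher and 13 lower in liver in B6, and 11 and 13 in D2. In either direction 44.7% (B6) and 44.4% (D2) of all probe sets were called. The smallest adjusted p of the 44 in both strains belonged to Cp, the plasma ferroxidase (log2 7.08 and 7.09).

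No marker of 11 enterocyte, 6 crypt, 8 acinar, 6 smooth muscle, 8 hepatocyte, 9 macrophage or 2 erythroid genes was called with the knockout in duodenum of either strain. The median log2 change of the acinar markers was -3.18 in D2 and 1.05 in B6 duodenum, and that of the enterocyte markers 0.001 and -0.006. The summed enterocyte signal was 43707 to 53818 in wild-type and 45797 to 51227 in Hfe-/- D2 duodenum, and 46504 to 56792 against 47815 to 53666 in B6. Single markers differed in D2: Slc5a1 (3065 to 3882 against 2352 to 2688) and Anpep (472 to 1002 against 241 to 356) were lower in every Hfe-/- mouse. Treh (1148 to 1568 against 1714 to 1884) was higher in every one, and the other enterocyte markers overlapped. Of all probe sets, 6.66% were lower and 9.74% higher without overlap. The summed crypt signal was 3564 to 4019.9 in wild-type and 2956 to 3287 in Hfe-/- D2 duodenum, and overlapped in B6. Mki67 (547 to 598 against 478 to 489) and Top2a (354 to 500.3 against 258 to 326) were lower in every Hfe-/- D2 mouse, and the other crypt markers overlapped. In liver 1 enterocyte marker was called lower in each strain, where 1.02% (B6) and 2.75% (D2) of all probe sets were called. Some genes of that list were bright in liver too. Apoa4 was at 4140.2 to 5629.8 in wild-type and 1197 to 1983 in Hfe-/- B6 livers. In D2 livers it was at 2479 to 3707 against 1535 to 2106. Of the 2 erythroid genes, Alas2 was called higher in D2, at 704 to 1018 in wild-type and 1569.6 to 2189 in Hfe-/- mice. The other, Slc4a1, did not rise in D2 liver, at 22.1 to 27.6 in wild-type and 9.55 to 26.8 in Hfe-/- mice.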

How the data were processed

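RNA of liver and duodenum was hybridized to 24 Affymetrix Mouse Genome arrays, 3 mice per strain, genotype and tissue. The deposited values are intensity signals on a linear scale, computed by the authors with MAS5 (version not given in the sources used here) and scaled so that the trimmed mean of each array is 100; detection calls were not used here. AFFX controls (64) were left out of 45101 rows, and a probe set was kept if its third-highest signal in liver or in duodenum was at least 20. No pseudocount was added before log2. Of 45037 probe sets, 34945 have 1 gene symbol, 932 several and 9160 none. In R 4.3.3, limma 3.58.1 was run per tissue on 4 groups of 3 arrays, its moderated variance following mean signal (trend), and to all 24 arrays for the tissues. A fold is that of the log2 means. Thresholds were an adjusted p of 0.1 (knockout, interaction) and 0.01 (strain, tissue). The fit was checked on simulated independent noise with a set change in Hfe-/- D2 arrays. That simulation held no run, station or acinar differences, so it does not bear on those. Runs were read from the hybridization times of the experiment files (gap over 30 min). The number of arrays limits the precision, and the tissues share mice, although the labels do not say which arrays are of 1 mouse. Every member probe set is reported; of the 7 lists of other iron genes and 7 of markers, up to 4 called genes per comparison were named by smallest adjusted p, and the 3 genes nearest in pattern to each member. Members and lists were chosen with earlier results of these data known. Alternatives were log2 of signal plus 16, quantile normalization, no filter, a floor of 100, no trend, only the arrays compared, replicate, run, or (added after the data were seen) run with fluidics station as a block, and arrays left out.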

Additional observations from a re-analysis of the deposited data

Results flagged for a closer look

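Cybrd1 1425040_at in liver moved in opposite directions in the strains: every Hfe-/- B6 mouse (11.6, 12.4 and 19.2) was above every wild-type B6 mouse (1.96, 5.13 and 3.36), and every Hfe-/- D2 mouse (2.44, 10 and 12.7) was below every wild-type D2 mouse (14.2, 13.6 and 26.5). The difference between the effects was -3.47 on the log2 scale, with an adjusted p of 0.235 (limma), and was not called. Of all probe sets, 8.34% were higher without overlap in Hfe-/- B6 liver and 8.1% lower without overlap in Hfe-/- D2 liver. The signals of 1425040_at were below the median of their array on 11 of 12 arrays. The other Cybrd1 probe set, 1460604_at, gave a difference of the opposite sign (log2 4.14, adjusted p = 0.444), from signals of 0.365 to 30.9.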

How the results depend on the processing

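The 12 counts of called member probe sets stayed within 1.5 times their value in 241 of 279 refits. Some of these counts were 0 in the main fit, and some refits left out an array outside the comparison, so the share is no measure of robustness. Of the values of single probe sets, 849 kept direction and side of the threshold, 55 lost a call, 18 gained one and 3 reversed. Without a mean-variance trend the count was 1 in B6 and 0 in D2 for the knockout in liver, 1 (wild-type) and 0 (Hfe-/-) between strains in liver, 0 for the knockout in D2 duodenum and 0 between Hfe-/- strains in duodenum. With only the arrays compared it was 0 between Hfe-/- strains in liver and 0 in duodenum. With log2 of signal plus 16, quantile normalization or no filter it was 2 between Hfe-/- strains in duodenum. With the hybridization run as a block it was 0 between Hfe-/- strains in liver, and 5 (B6) and 4 (D2) between tissues. With run and fluidics station as a block, chosen after seeing the data, it was 0 for the knockout in D2 liver and in D2 duodenum, 0 between strains in wild-type and Hfe-/- liver and in Hfe-/- duodenum, and 3 (B6) and 1 (D2) between tissues. That block also reversed the tissue difference of Slc11a2 1426441_at in B6 (log2 0.64), 1417584_at in D2 (0.45) and 1441709_at in D2 (1.19). Without Hfe-/- D2 duodenum arrays 2 and 3 it was 0 for the knockout in D2 and 0 between Hfe-/- strains. Leaving out 1 array gave 0 to 2 between Hfe-/- strains in liver, 0 to 4 for the knockout in D2 duodenum, 0 to 1 between wild-type strains and 0 to 3 between Hfe-/- strains in duodenum. The cause of these changes was not tested.

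The replicate number as a block gave 2 called in D2 liver (Slc40a1 1417061_at gained, adjusted p = 0.0797) and 0 between Hfe-/- strains in duodenum (Slc11a2 1441709_at, adjusted p = 0.0115), and moved no other count by over 1.5 times. Samples with 1 number did not deviate together: r was -0.158 to 0.031 over 12 pairs of knockout and wild-type arrays and -0.017 to 0.033 over 12 pairs of liver and duodenum arrays. Signals near the array median limit Cybrd1 and Heph in liver.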
